A study of Mus musculus with 12 samples.

Results

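Mitosis and spindle genes form a module of 50 genes in RNA-Seq of mouse B cells that pass from rest through activation to division and plasmablast differentiation. Members were chosen by name, each matched to the table of counts by its Entrez identifier, and all 50 were found among its 27179 genes. They code for kinases, cyclins and phosphatases that drive entry into mitosis, spindle checkpoint proteins, kinesins, centromere and kinetochore proteins, spindle assembly and cytokinesis proteins, regulators of anaphase, and a pair of transcription factors. Expression was profiled at 6 stages with 2 libraries each, in splenic B cells of male C57BL/6 mice (Pep3b background) aged 6 to 12 weeks. Naive B cells were untreated, and all other cells had been cultured with lipopolysaccharide (LPS) of Salmonella typhosa at 25 µg/ml. Naive cells were sorted, whereas B cells for culture were first isolated by negative selection. Cultures for 3 to 33 h were denser than those for day 4. Effects of isolation and density cannot be told apart from those of stage. Cells taken at 3, 10 and 33 h had been labelled with CellTrace Violet, a dye that is diluted at each division, and were sorted as CD69+ cells with the highest dye signal, that is, before any division. On day 4, expanded B cells were sorted as CD22+CD138- and plasmablasts as CD22-CD138+. No gene was altered at any stage, and the number of mice behind each library was not given in the sources used here.

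As background, a cell enters mitosis when cyclin B binds the kinase CDK1 and CDC25 phosphatases remove inhibitory phosphates from it. Kinetochores then attach chromosomes to spindle microtubules under the watch of the spindle checkpoint, and the anaphase-promoting complex (APC/C) with its activator CDC20 marks cyclin B and securin for destruction so that sister chromatids can part. Many of these genes are transcribed late in the cell cycle, through the MuvB complex with B-MYB (Mybl2) and FOXM1, and their promoters are known for CCAAT boxes, bound by NF-Y, and for the cell cycle genes homology region (CHR). Activated B cells divide several times in quick succession before plasmablasts form.

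Promoter sequence is given first, and its relation to the course of expression was not tested. RefSeq windows on GRCm38.p6, from 250 bases before to 50 bases after an annotated start, were matched for 41 members, which have 45 windows. No window was matched for Ccna2, Spc24, Aurkb, Cdc25c, Kif20a, Incenp, Ska1, Tpx2 and Foxm1. The motifs searched on both strands were CCAAT, the CHR as TTTGAA or TTCGAA, and an E2F-like site as TTGGCGC or TTCCCGC, of which the first can share bases with a reversed CCAAT box. Ccnb2, Cdc20, Plk1 and Ube2c are shown because they had a CCAAT box and a CHR and were among the members with the highest levels, and Gtse1 and Mybl2 because their course differed from the rest and their windows held no CHR. Windows of Cdc25b, Cenpa and Bub3, whose courses also differed, did hold a CHR. CCAAT boxes and CHR matches of either strand are in capitals, and every window is written 5′ to 3′ on the strand of its gene. The windows are chr9:70421505-70421804 (minus strand) for Ccnb2, chr4:118437294-118437593 (minus strand) for Cdc20, chr7:122159185-122159484 (plus strand) for Plk1, chr2:164769679-164769978 (plus strand) for Ube2c, chr15:85859457-85859756 (plus strand) for Gtse1, which has a second, overlapping window, and chr2:163054385-163054684 (plus strand) for Mybl2.
Ccnb2: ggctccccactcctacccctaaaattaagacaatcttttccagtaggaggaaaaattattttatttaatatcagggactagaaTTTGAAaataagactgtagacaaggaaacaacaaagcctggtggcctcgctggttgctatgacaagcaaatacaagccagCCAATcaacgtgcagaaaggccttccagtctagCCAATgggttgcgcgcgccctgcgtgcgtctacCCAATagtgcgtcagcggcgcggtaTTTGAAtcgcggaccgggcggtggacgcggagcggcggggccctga
Cdc20: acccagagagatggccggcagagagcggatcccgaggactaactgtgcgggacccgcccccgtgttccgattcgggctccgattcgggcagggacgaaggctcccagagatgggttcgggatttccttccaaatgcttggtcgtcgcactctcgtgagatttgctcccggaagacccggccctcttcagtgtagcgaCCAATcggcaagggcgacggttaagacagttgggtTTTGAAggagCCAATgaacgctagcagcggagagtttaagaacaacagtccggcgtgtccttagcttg
Plk1: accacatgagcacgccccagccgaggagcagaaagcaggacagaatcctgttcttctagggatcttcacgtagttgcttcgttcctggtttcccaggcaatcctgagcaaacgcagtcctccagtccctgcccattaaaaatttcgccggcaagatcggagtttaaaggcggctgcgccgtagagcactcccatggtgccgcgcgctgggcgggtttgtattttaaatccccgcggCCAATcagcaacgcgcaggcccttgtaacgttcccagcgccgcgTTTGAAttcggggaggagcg
Ube2c: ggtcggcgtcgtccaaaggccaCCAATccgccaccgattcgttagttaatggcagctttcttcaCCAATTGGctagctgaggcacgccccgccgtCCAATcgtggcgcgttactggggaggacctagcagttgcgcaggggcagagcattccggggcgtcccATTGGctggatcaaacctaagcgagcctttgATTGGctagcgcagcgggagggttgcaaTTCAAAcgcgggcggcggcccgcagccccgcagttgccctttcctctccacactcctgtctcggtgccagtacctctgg
Gtse1: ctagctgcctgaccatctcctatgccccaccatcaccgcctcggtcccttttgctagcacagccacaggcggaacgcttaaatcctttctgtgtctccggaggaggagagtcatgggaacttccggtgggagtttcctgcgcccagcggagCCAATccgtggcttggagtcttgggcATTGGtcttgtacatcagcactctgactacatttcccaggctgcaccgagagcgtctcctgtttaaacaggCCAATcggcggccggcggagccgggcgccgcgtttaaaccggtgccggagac
Mybl2: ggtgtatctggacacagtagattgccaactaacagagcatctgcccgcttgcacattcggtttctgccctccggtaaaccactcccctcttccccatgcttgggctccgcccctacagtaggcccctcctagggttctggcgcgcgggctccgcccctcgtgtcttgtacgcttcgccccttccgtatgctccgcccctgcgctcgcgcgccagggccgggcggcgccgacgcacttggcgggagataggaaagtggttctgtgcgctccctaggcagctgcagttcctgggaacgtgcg

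Of the 45 member windows, 32 held a CHR, or 71.1%, against 19.2% of all 32851 promoter windows and 22.2% of 27 windows of a list of DNA replication genes. A CCAAT box stood in 71.1% of member windows, 37.4% of all windows and 51.9% of replication windows, and both motifs together in 60%, 7.52% and 18.5%. E2F-like sites were the exception, in 15.6% of member windows and 6.81% of all windows but 51.9% of replication windows. Of 41 CHR matches, 31 began within 50 bases of the start, while 38 of 68 CCAAT boxes began between 100 and 20 bases before it. Bub3, Ect2, Gtse1 and Prc1 have overlapping windows, so that matches shared by these windows are counted more than once. In Plk1 the CHR began 30 bases after the start, in Ccnb2 4 bases after it with a further match at -167, in Cdc20 at -18 and in Ube2c at -29. Ube2c held 6 CCAAT matches, of which a pair shares bases on opposite strands. No CHR letters were found in the windows of Birc5, Ccnb1, Cenpe, Gtse1, Kif18a, Knstrn, Mad2l1, Mybl2, Nek2, Nuf2, Nusap1 and Pttg1. These are matches of letters within a fixed window, and binding was not measured.

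**Figure D1:**
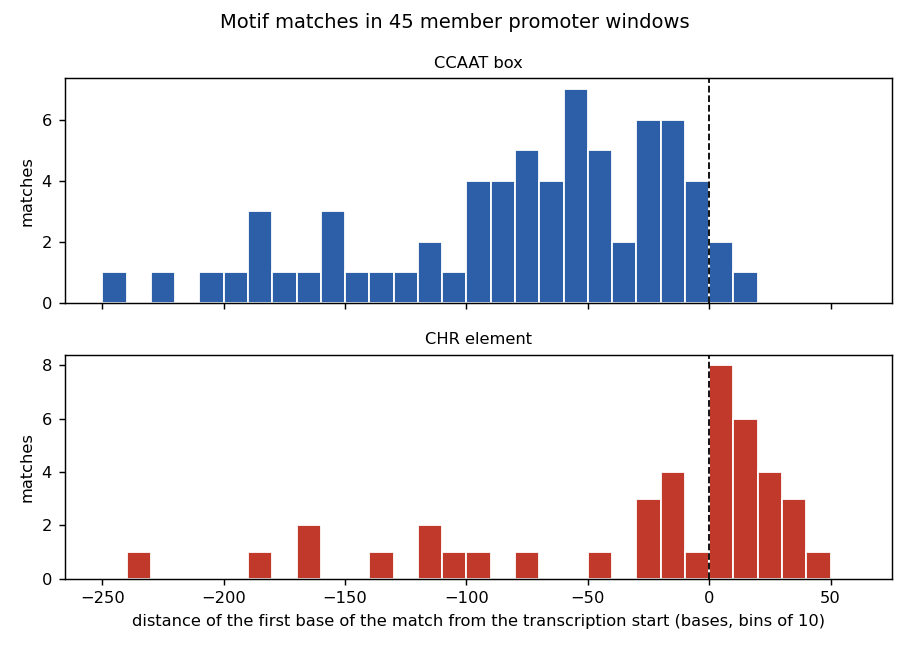
Number of CCAAT boxes (top, blue) and CHR elements (bottom, red) in 45 promoter windows of 41 members, by distance of the first base of the match from the annotated transcription start (x axis, bins of 10 bases; dashed line, start). Most of the 41 CHR matches lie close to the start (31 within 50 bases), while CCAAT boxes spread upstream of it (38 of 68 between 100 and 20 bases before). Matches shared by overlapping windows of a gene are counted in each window.

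The 12 libraries held 23026619 to 60585587 counts, and every member but Cdc25c had more than 3 counts in every library, so that low levels at rest were measured rather than missing. Levels are given as RPKM, that is, reads per kilobase of exon scaled to a common library size, with TMM-scaled library sizes, as replicate 1 and replicate 2. The B cell marker Pax5 went from 407 and 385 RPKM in naive cells to 7.53 and 6.42 RPKM in plasmablasts, and all 5 plasmablast markers rose between 33 h and plasmablasts. Naive libraries also carried RNA of other blood cells, although the study's methods give a sort of naive cells by B cell surface markers and the absence of TCRβ. The summed level of 7 myeloid markers was 406 and 163 RPKM in naive cells against 0.204 to 9.74 RPKM in the other libraries, and that of 5 erythroid markers 238 and 175 RPKM against 0.266 to 2.02 RPKM. Lyz2, S100a8 and S100a9 were at 0 or within 0.0707 RPKM after activation. Itgam of the same list was at 2.11 and 1.26 RPKM in naive but 5.43 and 4.91 RPKM in expanded libraries. Adgre1 was at 3.73 and 3.77 RPKM in naive and 4.23 and 4.34 RPKM in expanded libraries. T cell markers summed to at most 2.75 RPKM in any library.

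Levels of all 50 members in each library are drawn in the plot of members by stage of first rise. Kif4 lies on the X chromosome, whose genes were removed before testing, which left 49 members for the tests. Members had a median of 2.21 RPKM before activation, 1.26 RPKM by 3 h and 2.26 RPKM by 10 h, but of 27.8 RPKM by 33 h, 40.2 RPKM in expanded cells and 35.2 RPKM in plasmablasts. The mean level was lowest at 3 h in 39 of 50 members and highest in expanded cells in 37, in plasmablasts in 10, at 33 h in 2 (Mybl2, Incenp) and at 10 h in 1 (Pttg1). The ratio of the highest to the lowest stage mean had a median of 38.9, was above 10 in 47 members, and ran from 1.24 in Pttg1 to 291 in Cdc25c, whose lowest stage rests on 2 and 4 counts. In bulk samples such as these, fewer cells in mitosis and less RNA per cell cannot be told apart.

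**Figure D2:**
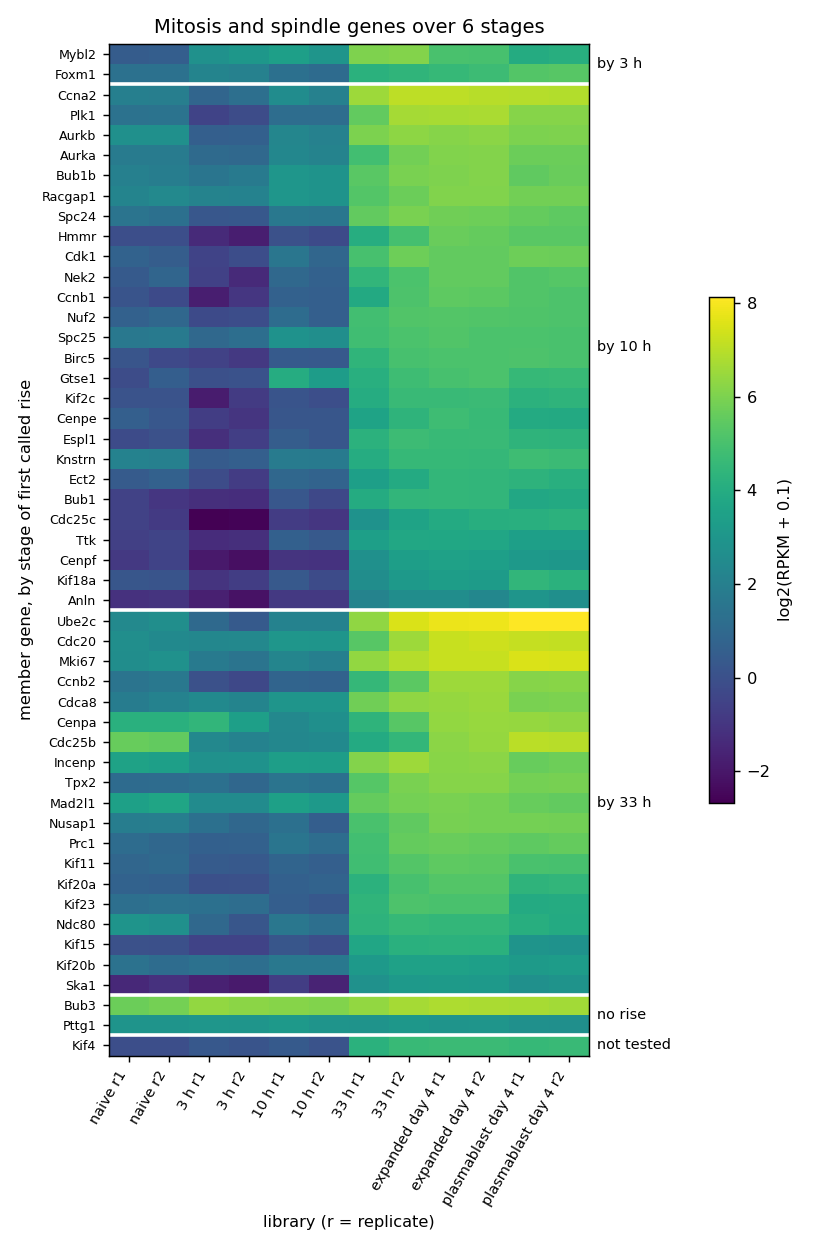
Level of 50 members (rows) in 12 libraries (columns, r = replicate), as log2(RPKM + 0.1), by the stage of the first called rise over the stage before. Most rows are darker from naive cells to 10 h than from 33 h on. Exceptions include Bub3 and Pttg1, which had no called rise, Cdc25b and Cenpa, which were already bright in naive cells, and Gtse1, which was bright at 10 h. Kif4 was not tested.

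Consecutive stages were compared with edgeR's glmTreat, which asks whether a change exceeds 1.5-fold, with Benjamini-Hochberg adjustment over 12767 genes at 0.05. From naive cells to 3 h, 20 of 49 members fell and 2 rose, while 24.3% of all tested genes fell and 21% rose. From 3 to 10 h, 26 rose and 2 fell, against 17.4% and 13.4% of all genes. From 10 to 33 h, 46 rose and 0 fell, against 10.1% and 4.45% (edgeR's glmTreat at an unadjusted p under 0.05, its F-test, which called 22.1% of all genes lower, and DESeq2's Wald test also gave 0 falls). From 33 h to expanded cells, 3 rose and 1 fell, where 7% and 3.67% of all genes did, and from expanded cells to plasmablasts 1 rose and 3 fell, where 14% and 12.2% did. The median member changed by -0.87, 1.17, 3.99, 0.35 and -0.26 on the log2 scale at these steps, while the median of all tested genes stayed between -0.045 and 0.0184. At the last step the F-test called 3 members higher and 12 lower (27.3% and 29.7% of all genes), and with library size as the only scaling glmTreat called 0 higher and 9 lower, where the median of all genes itself moved to -0.384.

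**Figure D3:**
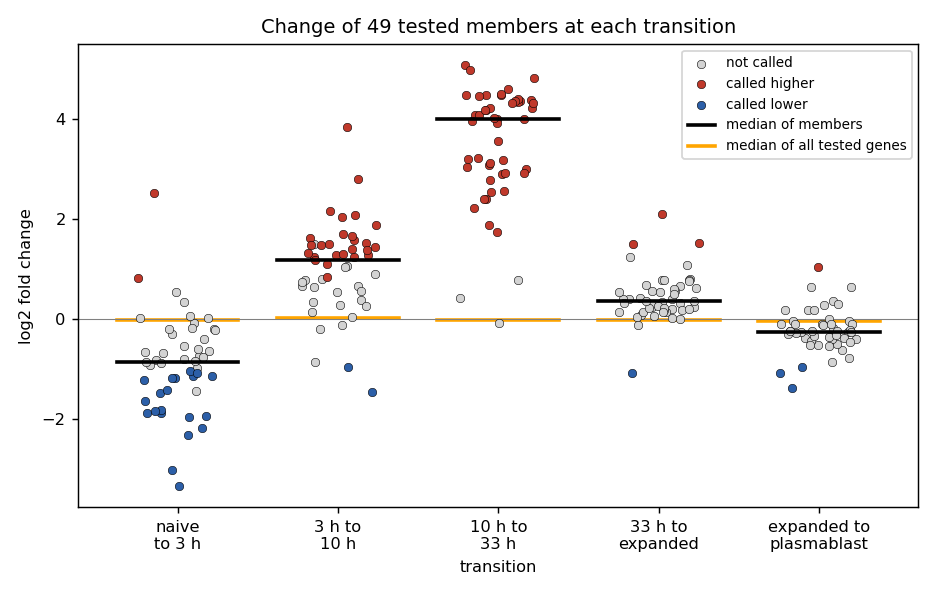
Log2 fold change (y axis) of 49 tested members at each of 5 transitions (x axis). Points are members, coloured by the glmTreat call, black lines the median of members and orange lines the median of all 12767 tested genes. The step from 10 to 33 h stands out, with a member median of 3.99 and 46 called rises.

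By the stage of the first called rise over the stage before, 2 members came first by 3 h (Mybl2 and Foxm1), 26 by 10 h and 19 by 33 h, and 2 had none (Bub3 and Pttg1). This order turns on the fall by 3 h. Of the 26 members that rose by 10 h, 14 had fallen by 3 h. Both calls use the same 3 h libraries, so a low 3 h value enters both, and the share of all genes with this course was not computed. Against naive cells only 6 members were higher at 10 h (19.4% of all genes were): Gtse1 by 3.61, Mybl2 by 2.77, Ttk by 1.17, Spc25 by 1.07, Cdca8 by 0.99 and Bub1b by 0.97 on the log2 scale. At the same stage 5 members were below naive cells (19.9% of all genes), namely Cdc25b, Cenpa, Ndc80, Nusap1 and Kif23. With naive cells as the reference throughout, 2 members first rose by 3 h, 5 by 10 h, 39 by 33 h, 1 in expanded cells (Cenpa) and 1 in plasmablasts (Cdc25b), and Pttg1 had no rise. Against naive cells, 46 members were higher at 33 h (22.3% of all genes), 47 in expanded cells (25%) and 48 in plasmablasts (26.6%). These comparisons share the naive libraries.

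Called falls by 3 h reached every role group but the transcription factors and the partners of the chromosomal passenger complex. Of these partners, Incenp and Birc5 had both 3 h libraries below both naive libraries, though without a call. The called falls were largest in Cdc25b, Cdc25c and Ndc80, with log2 fold changes of -3.35 (SE 0.17, adjusted p = 6.3e-09), -3.02 (SE 0.57, adjusted p = 0.0011) and -2.32 (SE 0.21, adjusted p = 2.7e-06), followed by Aurkb at -2.19 (SE 0.14, adjusted p = 1.4e-07). The other 16 members that fell were Cenpf, Ube2c, Hmmr, Ccnb2, Plk1, Nek2, Knstrn, Cenpe, Kif2c, Anln, Spc24, Kif18a, Ect2, Mki67, Nuf2 and Mad2l1, with log2 fold changes of -1.97 (Cenpf) to -1.04 (Mad2l1). In 39 of 50 members both 3 h libraries lay below both naive libraries, which held for 42.9% of all tested genes. The myeloid and erythroid RNA of the naive libraries moved with this step. Those markers were 406 and 163 RPKM and 238 and 175 RPKM in naive replicates 1 and 2, and their part in the fall was not tested. Several falls needed both 3 h libraries. Without 3 h replicate 1, the falls of Plk1 (-1.68), Hmmr (-2.12), Ube2c (-2.25), Kif18a (-1.03), Kif2c (-1.01) and Nuf2 (-1.02) no longer passed. Without 3 h replicate 2, those of Plk1 (-2.12), Ccnb2 (-1.70), Ube2c (-1.61), Hmmr (-1.60), Nek2 (-1.34), Cenpe (-1.31), Anln (-0.87) and Ect2 (-0.80) were lost. Without naive replicate 2, Anln (-1.16), Ect2 (-1.01) and Nuf2 (-0.95) were lost, and without naive replicate 1 Kif18a (-1.15).

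The rises from 3 to 10 h were largest in Gtse1, Cdc25c and Ccnb1, with log2 fold changes of 3.83 (SE 0.33, adjusted p = 7.2e-06), 2.79 (SE 0.57, adjusted p = 0.0033) and 2.16 (SE 0.57, adjusted p = 0.024). Nek2 rose by 2.08, Ttk by 2.04, Hmmr by 1.87, Cdk1 by 1.69, Spc25 by 1.66 and Aurkb by 1.62, and the other 17, from Plk1 (1.58) to Racgap1 (0.83), were Cenpf, Anln, Bub1, Ect2, Espl1, Spc24, Kif2c, Knstrn, Ccna2, Bub1b, Aurka, Cenpe, Birc5, Nuf2 and Kif18a. Cenpa and Foxm1 fell. In 41 of 50 members both 10 h libraries lay above both 3 h libraries (40.8% of all genes). Calls at this step depended on single libraries, and most on the 3 h replicates. The rises lost without replicate 1 were those of Hmmr (2.12), Ccnb1 (1.83), Cdk1 (1.53), Plk1 (1.43), Cenpe (1.42), Birc5 (1.39), Aurka (1.31), Ccna2 (1.12), Kif2c (0.98), Kif18a (0.95) and Racgap1 (0.84). Those lost without replicate 2 were Cdc25c (2.95), Ccnb1 (2.93), Cdk1 (1.97), Plk1 (1.85), Hmmr (1.57), Nek2 (1.57), Bub1 (1.45), Kif18a (1.37), Cenpf (1.26), Aurka (1.23), Anln (1.12), Cenpe (1.04), Birc5 (1.02) and Racgap1 (0.84). Without 10 h replicate 1, Ccnb1 (2.10), Plk1 (1.57), Kif2c (1.25), Aurka (1.18), Bub1 (1.12), Nuf2 (0.86), Racgap1 (0.77) and Kif18a (0.76) were lost, without 10 h replicate 2 Plk1 (1.60), and without a naive or plasmablast library Kif18a (1.06 to 1.10) and Racgap1 (0.80 to 0.84), the latter also without an expanded library (0.84). Gtse1, Ttk, Spc25, Aurkb, Spc24, Knstrn, Bub1b, Ect2 and Espl1 passed under every alternative tried.

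Mitotic kinases come first among the roles. Plk1 codes for Polo-like kinase 1, which acts from mitotic entry to cytokinesis, and its level was 2.55 and 2.64 RPKM in naive libraries, 0.607 and 0.805 by 3 h, 2.19 and 2.16 by 10 h, 46.2 and 101 by 33 h, 104 and 108 in expanded and 72.6 and 72.6 in plasmablast libraries. It had the largest rise of any member from 10 to 33 h, 5.07 (SE 0.32, adjusted p = 1.5e-06), and its 33 h libraries lay apart although both exceeded every earlier library. Aurka, the Aurora kinase of centrosomes and spindle poles, was at 3.47 and 3.44 RPKM in naive libraries, 2.02 and 1.90 by 3 h, 4.98 and 4.41 by 10 h, 29.3 and 56.7 by 33 h, 68.3 and 68.8 in expanded and 52.6 and 52.7 in plasmablast libraries. Aurkb, the kinase of the chromosomal passenger complex, was at 6.71 and 6.56 RPKM in naive libraries, 1.42 and 1.48 by 3 h, 4.77 and 4.16 by 10 h, 64.5 and 79.0 by 33 h, 72.8 and 75.4 in expanded and 64.7 and 65.9 in plasmablast libraries. For both Aurora kinases every library from 33 h on lay above every earlier one, with log2 fold changes from 10 to 33 h of 3.19 (SE 0.24, adjusted p = 3.0e-06) and 4.00 (SE 0.12, adjusted p = 5.3e-10). Ttk, the checkpoint kinase MPS1, rose by 3.21 and Nek2, a centrosome kinase, by 4.02 at the same step.

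Cdk1, the kinase that drives mitotic entry, was at 1.55 and 1.31 RPKM in naive libraries, 0.604 and 0.815 by 3 h, 2.91 and 1.76 by 10 h, 32.1 and 53.2 by 33 h, 46.7 and 46.9 in expanded and 53.0 and 52.1 in plasmablast libraries. Its partner Ccna2, cyclin A2, which acts in S phase and at mitotic entry, was at 3.91 and 3.79 RPKM in naive libraries, 1.69 and 2.30 by 3 h, 5.83 and 4.11 by 10 h, 93.5 and 132 by 33 h, 131 and 126 in expanded and 123 and 117 in plasmablast libraries. The libraries up to 10 h and those from 33 h on did not overlap for either gene, and the rise by 33 h was 4.18 (SE 0.27, adjusted p = 8.0e-07) for Cdk1 and 4.50 (SE 0.20, adjusted p = 1.7e-08) for Ccna2. From 33 h on neither changed by more than 0.19 on the log2 scale at a step. The cyclins of mitosis itself kept a gap between 33 h and expanded cells. Ccnb1, cyclin B1, was at 1.01 and 0.736 RPKM in naive libraries, 0.193 and 0.411 by 3 h, 1.53 and 1.40 by 10 h, 14.9 and 35.0 by 33 h, 43.6 and 42.1 in expanded and 36.5 and 34.9 in plasmablast libraries. Ccnb2, cyclin B2, was at 2.72 and 3.07 RPKM in naive libraries, 0.905 and 0.703 by 3 h, 1.66 and 1.58 by 10 h, 23.1 and 42.6 by 33 h, 94.2 and 93.0 in expanded and 72.1 and 73.1 in plasmablast libraries. Every expanded library of both genes lay above both 33 h libraries, and Ccnb2 rose again at this step, 1.52 (SE 0.21, adjusted p = 0.0019), whereas the change of Ccnb1 was 0.79 (SE 0.30, adjusted p = 0.52). The spans of Ccna2 and its neighbour Exosc9 share 863 bases, and a pseudogene Ccnb1-ps was counted separately, so that the level of Ccnb1 may miss or include shared reads.

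CDC25 phosphatases, which switch CDK1 on, followed separate courses. Cdc25b was at 48.5 and 46.1 RPKM in naive libraries, 5.06 and 4.31 by 3 h, 4.95 and 5.35 by 10 h, 15.3 and 22.4 by 33 h, 75.2 and 86.8 in expanded and 127 and 126 in plasmablast libraries. Its naive level was the highest of any member after Bub3, it fell more than any other member by 3 h, and it then rose 1.87 (SE 0.15, adjusted p = 8.7e-06) by 33 h and 2.10 (SE 0.15, adjusted p = 5.2e-06) by day 4. Its level at 33 h was 23.3% of that in expanded cells and still below naive cells, with a log2 fold change against naive cells of -1.33 (SE 0.15, adjusted p = 0.00011). Cdc25c was at 0.593 and 0.459 RPKM in naive libraries, 0.0575 and 0.0677 by 3 h, 0.493 and 0.409 by 10 h, 7.11 and 11.8 by 33 h, 15.3 and 16.9 in expanded and 17.3 and 19.1 in plasmablast libraries. The 3 h value rests on 2 and 4 counts, against 39 and 23 in naive cells, and both 33 h libraries were above all earlier ones. The change of Cdc25b between expanded cells and plasmablasts was 0.65 (SE 0.14, adjusted p = 0.38).

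**Figure D4:**
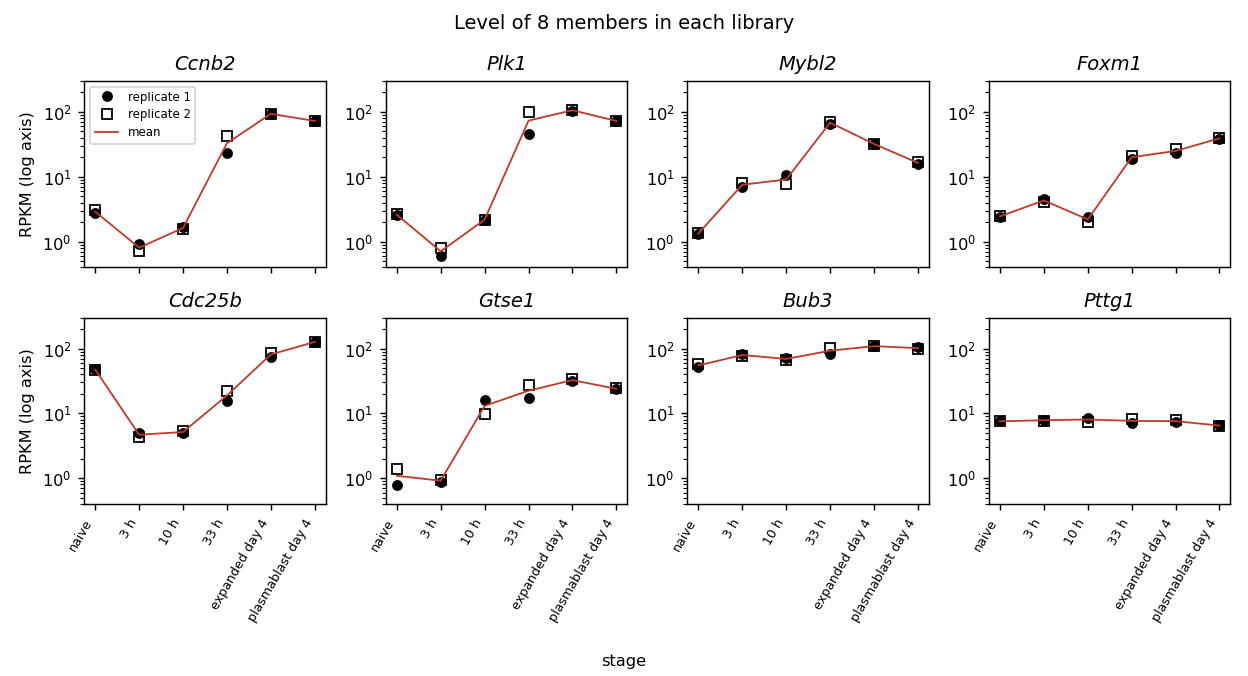
RPKM (log axis) of 8 members in each library by stage (filled circles, replicate 1; open squares, replicate 2; red line, mean). Ccnb2 and Plk1 show the course of most members, with a dip at 3 h and a steep rise by 33 h, while Mybl2, Foxm1, Cdc25b and Gtse1 each depart from it and Bub3 and Pttg1 stay within 1.98 and 1.24 times their lowest stage mean.

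The transcription factors were the only members that glmTreat called higher by 3 h (the F-test, which called 34.6% of all genes higher, added Bub3). Mybl2, which codes for B-MYB, was at 1.29 and 1.37 RPKM in naive libraries, 6.91 and 8.15 by 3 h, 10.5 and 7.60 by 10 h, 66.2 and 70.6 by 33 h, 32.2 and 32.0 in expanded and 15.7 and 17.1 in plasmablast libraries. Its level peaked at 33 h, with every library from 3 h on above the naive ones. The rise was 2.51 (SE 0.16, adjusted p = 7.7e-08) by 3 h and 2.91 (SE 0.14, adjusted p = 1.4e-08) by 33 h, and the falls were -1.09 (SE 0.13, adjusted p = 0.003) to expanded cells and -0.97 (SE 0.13, adjusted p = 0.0069) to plasmablasts. Without plasmablast replicate 1 the last of these was -0.88 with an adjusted p of 0.071. Foxm1 was at 2.43 and 2.46 RPKM in naive libraries, 4.56 and 4.06 by 3 h, 2.36 and 2.02 by 10 h, 18.7 and 21.3 by 33 h, 23.4 and 26.7 in expanded and 38.1 and 40.3 in plasmablast libraries. Its libraries at 3 h lay above those of naive cells and of 10 h, and those of plasmablasts above all others. Foxm1 rose 0.81 (SE 0.12, adjusted p = 0.027) by 3 h, fell -0.97 (SE 0.12, adjusted p = 0.0038) by 10 h and rose 3.18 (SE 0.12, adjusted p = 3.4e-09) by 33 h. The first of these passed only narrowly, since the adjusted p was 0.073 without naive replicate 1, 0.056 without naive replicate 2, 0.099 without 3 h replicate 1, 0.051 and 0.05 after rounding without plasmablast replicates 1 and 2, and 0.36 with library size as the only scaling, which also gave the fall by 10 h an adjusted p of 0.3. From 33 h to plasmablasts Mybl2 fell by 2.06 and Foxm1 rose by 0.97 on the log2 scale, and 8 members rose and 2 fell in that comparison, against 20.1% and 19.4% of all genes.

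Checkpoint genes code for proteins that hold anaphase until kinetochores are attached. Bub1, a kinase at kinetochores, was at 0.599 and 0.411 RPKM in naive libraries, 0.334 and 0.318 by 3 h, 1.09 and 0.707 by 10 h, 15.7 and 21.5 by 33 h, 22.3 and 21.5 in expanded and 13.8 and 14.8 in plasmablast libraries. Bub3, which binds BUB1 and BUBR1, was at 52.1 and 57.8 RPKM in naive libraries, 82.0 and 76.9 by 3 h, 70.9 and 67.6 by 10 h, 82.4 and 103 by 33 h, 110.3 and 108 in expanded and 104 and 99.2 in plasmablast libraries. Bub1 libraries up to 10 h lay far below later ones, with a log2 fold change by 33 h of 4.35 (SE 0.21, adjusted p = 1.4e-08), whereas Bub3 was high in every library and passed the test at no step. Its largest change at a step was 0.53 (SE 0.10, adjusted p = 0.63), by 3 h, although against naive cells it was higher at 33 h by 0.75. Bub1b, which codes for BUBR1, and Mad2l1, which codes for MAD2, rose by 2.78 and 2.40 from 10 to 33 h.

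Kinesins move along or remodel spindle microtubules. Of 7 tested members of this group all rose from 10 to 33 h, from Kif20b (1.74), through Kif18a (2.91), to Kif15 (3.99), Kif20a (4.07), Kif11 (4.40), which slides the spindle poles apart, Kif2c (4.46), which depolymerises microtubules at centromeres, and Kif23 (4.47). Kif4, the chromokinesin KIF4A, was at 0.858 and 0.847 RPKM in naive libraries, 1.14 and 0.997 by 3 h, 1.20 and 0.954 by 10 h, 18.6 and 24.1 by 33 h, 25.9 and 26.0 in expanded and 23.7 and 25.0 in plasmablast libraries. With X chromosome genes kept, its log2 fold change from 10 to 33 h was 4.27 (SE 0.15, adjusted p = 1.4e-09), and the adjusted p was 1 at every other step. A copy, Kif4-ps, was counted separately. Some kinesins also changed at the step to plasmablasts, in both directions. Kif18a, which dampens chromosome movements at the metaphase plate, was at 1.06 and 1.01 RPKM in naive libraries, 0.381 and 0.507 by 3 h, 1.16 and 0.769 by 10 h, 6.06 and 8.62 by 33 h, 10.1 and 9.47 in expanded and 21.7 and 18.5 in plasmablast libraries. Kif15, a spindle motor, was at 0.894 and 0.892 RPKM in naive libraries, 0.601 and 0.620 by 3 h, 1.08 and 0.844 by 10 h, 13.0 and 17.8 by 33 h, 19.4 and 18.5 in expanded and 7.43 and 7.09 in plasmablast libraries. Kif23, the motor of the central spindle, was at 2.34 and 2.51 RPKM in naive libraries, 2.43 and 2.17 by 3 h, 1.36 and 1.15 by 10 h, 21.1 and 34.8 by 33 h, 32.3 and 32.5 in expanded and 15.1 and 15.6 in plasmablast libraries. Plasmablast libraries lay above all others for Kif18a and below both 33 h and expanded libraries for Kif15 and Kif23. The changes from expanded cells were 1.04 (SE 0.18, adjusted p = 0.013) for Kif18a, -1.39 (SE 0.14, adjusted p = 7.7e-05) for Kif15 and -1.08 (SE 0.18, adjusted p = 0.0094) for Kif23. The rise of Kif18a had an adjusted p of 0.25 with library size as the only scaling, 0.07 without expanded replicate 2 and 0.084 without plasmablast replicate 1, and the fall of Kif23 one of 0.056 without plasmablast replicate 1. Kif18a shares 593 bases with Mettl15 and Kif20a 4930 bases with Cdc23, so that reads of these neighbours may be split between them.

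All 9 centromere and kinetochore members rose from 10 to 33 h. Cenpe, the kinetochore motor CENP-E, was at 1.41 and 1.10 RPKM in naive libraries, 0.521 and 0.399 by 3 h, 1.06 and 1.07 by 10 h, 11.9 and 20.5 by 33 h, 27.1 and 24.0 in expanded and 15.1 and 14.7 in plasmablast libraries. Every library from 33 h on lay above all earlier ones, with a log2 fold change of 3.92 (SE 0.24, adjusted p = 3.3e-07). Ndc80, which binds microtubules in the NDC80 complex, was at 7.40 and 6.71 RPKM in naive libraries, 1.87 and 1.07 by 3 h, 2.93 and 2.32 by 10 h, 19.6 and 23.6 by 33 h, 22.4 and 22.3 in expanded and 17.2 and 15.3 in plasmablast libraries. Its naive libraries lay above those of 3 and 10 h, whereas the naive means of its partners Nuf2, Spc24 and Spc25 lay below their means at 10 h. Partners of Ndc80 rose from 10 to 33 h by 4.22 (Nuf2), 4.17 (Spc24) and 2.22 (Spc25), and Ndc80 by 3.03.

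Cenpa, the histone H3 variant that marks centromeres, was at 18.1 and 18.3 RPKM in naive libraries, 21.8 and 10.5 by 3 h, 5.04 and 6.49 by 10 h, 20.6 and 40.0 by 33 h, 84.0 and 87.0 in expanded and 84.9 and 80.5 in plasmablast libraries. Its 10 h libraries were the lowest and its 3 h libraries lay far apart, and it was one of 2 members that fell from 3 to 10 h, -1.47 (SE 0.36, adjusted p = 0.027). It then rose 2.39 (SE 0.35, adjusted p = 0.0017) by 33 h and 1.51 (SE 0.33, adjusted p = 0.037) by day 4, and its 33 h level was 35.4% of that in expanded cells. Without 3 h replicate 1 the fall was -0.87 with an adjusted p of 0.34, without 10 h replicate 1 it was -1.29 (0.12), and with library size as the only scaling -1.12 (0.069). The rise to expanded cells was 1.09 (0.22) without 33 h replicate 1, and its adjusted p was 0.12 and 0.14 without expanded replicates 1 and 2. Cenpf, Knstrn and Ska1, which code for further proteins of the outer kinetochore and spindle, rose by 4.47, 2.55 and 4.32 from 10 to 33 h.

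The partners of Aurora B in the chromosomal passenger complex were Birc5, Incenp and Cdca8, which code for survivin, INCENP and borealin. Birc5 was at 1.03 and 0.715 RPKM in naive libraries, 0.588 and 0.452 by 3 h, 1.19 and 1.18 by 10 h, 21.1 and 32.1 by 33 h, 33.5 and 33.3 in expanded and 34.1 and 32.8 in plasmablast libraries. Its 2 groups of libraries, up to 10 h and from 33 h on, did not overlap, with a rise by 33 h of 4.48 (SE 0.20, adjusted p = 8.3e-09). Incenp and Cdca8 started from higher levels, at 11.5 and 10.7 RPKM and 3.58 and 4.22 RPKM in naive cells, and rose by 3.00 and 3.12 at the same step.

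Among 4 spindle assembly and microtubule proteins, Gtse1 was the one that glmTreat called higher than naive cells by 10 h. Tpx2, without a call, had both 10 h libraries (2.67 and 2.42 RPKM) above both naive libraries (2.03 and 2.10 RPKM). Gtse1 codes for a microtubule-binding protein that restrains KIF2C and also binds p53, and it was at 0.796 and 1.38 RPKM in naive libraries, 0.883 and 0.945 by 3 h, 16.2 and 9.88 by 10 h, 17.5 and 27.3 by 33 h, 31.2 and 34.0 in expanded and 23.4 and 24.4 in plasmablast libraries. Both 10 h libraries lay above every earlier one, and its change from 10 to 33 h was 0.77 (SE 0.25, adjusted p = 0.38). It was one of 3 members without a call at this step, beside Bub3 and Pttg1. The 10 h rise kept its call under every alternative tried, with log2 fold changes of 3.43 to 4.15 and adjusted p-values of at most 0.0035. Hmmr, which codes for a spindle protein that also binds hyaluronan, was at 0.845 and 0.852 RPKM in naive libraries, 0.285 and 0.193 by 3 h, 0.914 and 0.757 by 10 h, 16.3 and 30.8 by 33 h, 50.8 and 48.2 in expanded and 40.9 and 41.2 in plasmablast libraries. Its rise by 33 h, 4.81 (SE 0.27, adjusted p = 2.2e-07), was the third largest of all members, and its 33 h level was 47.7% of that in expanded cells. Tpx2, which activates Aurora A, and Nusap1, a microtubule bundler, rose by 4.30 and 4.35.

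Central spindle and cytokinesis members were Prc1, a microtubule crosslinker, Anln, an actin-binding protein of the cleavage furrow, Ect2, which activates RhoA, and Racgap1, a subunit of centralspindlin. From 10 to 33 h they rose by 3.96, 3.55, 2.90 and 2.54 on the log2 scale. From 33 h to expanded cells the F-test, though not glmTreat, called 2 of these 4 higher (18.5% of all genes). The spans of Prc1 and Rccd1 share 21669 bases, those of Foxm1 and Tex52 377 and those of Aurka and Cstf1 242.

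Regulators of anaphase differed widely in how much they changed. Cdc20, the mitotic activator of the APC/C, was at 6.17 and 5.39 RPKM in naive libraries, 4.97 and 5.12 by 3 h, 7.96 and 7.72 by 10 h, 39.4 and 92.3 by 33 h, 151 and 157 in expanded and 145 and 141 in plasmablast libraries. Ube2c, its ubiquitin-conjugating enzyme, was at 5.26 and 6.29 RPKM in naive libraries, 1.92 and 1.20 by 3 h, 4.20 and 4.20 by 10 h, 81.4 and 184 by 33 h, 225 and 231 in expanded and 279 and 279.8 in plasmablast libraries. Replicate 2 exceeded replicate 1 more than 2-fold in both genes at 33 h, and all 33 h libraries lay above all earlier ones, with log2 fold changes by 33 h of 3.07 (SE 0.32, adjusted p = 9.8e-05) and 4.98 (SE 0.35, adjusted p = 4.3e-06). Ube2c was the member with the highest level in expanded cells and in plasmablasts. Espl1, which codes for separase, rose by 4.22 at the same step. Pttg1, which codes for securin, the inhibitor of separase, was between 6.37 and 8.60 RPKM in all 12 libraries, and its fold change at a step was never beyond -0.23 (SE 0.13, adjusted p = 1). Mki67, whose protein Ki-67 coats mitotic chromosomes, was at 6.13 and 6.88 RPKM in naive libraries, 3.19 and 2.74 by 3 h, 4.62 and 3.93 by 10 h, 84.2 and 122 by 33 h, 148 and 149.8 in expanded and 183 and 178 in plasmablast libraries. Its plasmablast libraries were the highest and its 3 h libraries the lowest, with a rise by 33 h of 4.59 (SE 0.17, adjusted p = 3.5e-09).

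At 33 h the replicates of this module differed in 1 direction. All 50 members were higher in replicate 2, with a median log2 ratio of 0.52, from 0.092 in Mybl2 to 1.23 in Ccnb1, while 47.6% of all genes with a value in both libraries were higher there and their median log2 ratio was -0.014. For 30 DNA replication genes the median log2 ratio was 0.12, with 26 higher in replicate 2. Ratios were largest for Ccnb1, Cdc20, Ube2c, Plk1, Cenpa, Aurka, Hmmr and Ccnb2, and smallest for Mybl2, Foxm1, Pttg1 and Spc25. At the other stages the median of members was between -0.198 and 0.013, the largest at 10 h, where 45 of 50 members and 29 of 30 replication genes were higher in replicate 1.

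The comparison of 33 h with expanded cells depended on this difference. At 33 h the mean level was 79.0% of that in expanded cells at the median of 50 members, and under 50% in Cdc25b, Ccnb2, Cenpa, Cdc20 and Hmmr. Over all alternatives, which include leaving out each 33 h library, the log2 fold changes of the 3 called rises to expanded cells varied. They ran from 1.13 to 2.01 for Ccnb2, 1.85 to 2.40 for Cdc25b and 1.09 to 2.05 for Cenpa. With both 33 h libraries the F-test called 19 members higher and 1 lower (18.5% and 21.3% of all genes). Both expanded libraries lay above both 33 h libraries in 32 of 50 members (34.5% of all genes). The cell cycle position of each library was not measured, and its part in this difference was not tested.

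**Figure D5:**
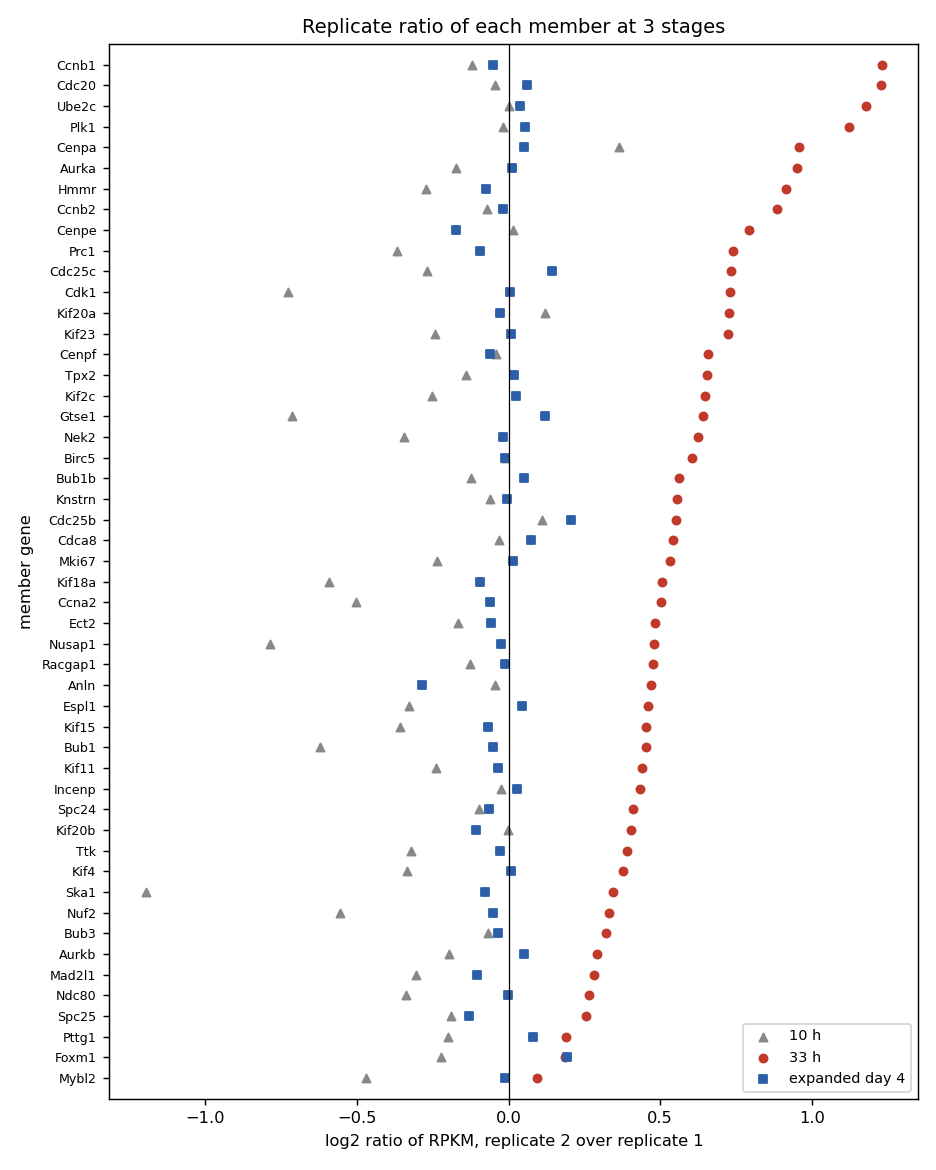
Log2 ratio of RPKM in replicate 2 over replicate 1 (x axis) for each member (rows) at 10 h (grey triangles), 33 h (red circles) and in expanded cells (blue squares). All 50 red circles lie right of 0, from 0.092 for Mybl2 to 1.23 for Ccnb1, while the ratios in expanded cells cluster around 0.

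Other mitotic genes were followed in lists of 95 genes, of which 94 were tested. From 10 to 33 h, 57 of them rose and 0 fell, where 10.1% and 4.45% of all genes did. At an unadjusted p under 0.05 glmTreat gave 1 fall, and the F-test gave 5, where it called 22.1% of all genes lower. The median log2 fold change of these genes was 1.43, against 3.99 for members and -0.024 for all genes. In the list of other centromere and kinetochore genes 21 of 30 rose, led by Kntc1 (3.87) and Knl1 (3.55), and in that of other kinesins, spindle and centrosome genes 19 of 25, led by Ckap2l (4.57), Kif14 (4.55) and Aspm (4.44). Of 14 other mitotic kinases, brakes and phosphatases 11 rose, led by Cdkn3 (4.07), Pbk (3.75) and Mastl (3.66), and of 8 other cytokinesis genes 4 did, led by Iqgap3 (4.74), Shcbp1 (4.20) and Cit (3.82). Of 17 APC/C subunits and regulators 2 rose, near the 10.1% of all genes, with a median of 0.085. The 2 were Fbxo5 (4.22), which codes for the APC/C inhibitor EMI1, and Anapc5 (0.80).

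By 3 h, 15 genes of these lists were higher and 18 lower of 94 tested, where 21% of all genes rose and 24.3% fell. Rises included Plk3 (4.27), a stress-responsive Polo-like kinase, Cks2 (2.60), Melk (2.45) and Wee1 (2.05), whose product inhibits CDK1, and falls included Mastl (-3.14), whose product keeps the phosphatase PP2A in check, Ska2 (-2.73) and Kifc1 (-2.07). From 3 to 10 h, 31 rose and 2 fell (17.4% and 13.4% of all genes), with Psrc1, a spindle protein, at 5.19 and Mastl at 3.07, against Plk3 (-1.97) and Wee1 (-0.83). From 33 h to expanded cells Cdc14b (2.01), Psrc1 (1.70) and Cdkn3 (1.08) rose and 0 fell, where 7% and 3.67% of all genes did. At an unadjusted p under 0.05 glmTreat gave 3 falls. The F-test gave 13 rises and 18 falls (18.5% and 21.3% of all genes). From expanded cells to plasmablasts 0 rose and 7 fell, where 14% and 12.2% of all genes did. The falls were led by Psrc1 (-2.20), Cdc14b (-1.77) and Spag5 (-1.28). At an unadjusted p under 0.05 glmTreat gave 1 rise at this step. The F-test gave 9 rises and 36 falls (27.3% and 29.7% of all genes).

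DNA replication genes, which act in the S phase before mitosis, gave a timing reference. Of 30 such genes, 6 rose and 5 fell by 3 h (21% and 24.3% of all genes), 15 rose and 2 fell from 3 to 10 h (17.4% and 13.4%), and 28 rose from 10 to 33 h (10.1%), with a median log2 fold change of 1.84 at the last of these steps. Tyms (2.80), Gins2 (2.71) and Mcm10 (2.66) led the rise from 3 to 10 h, after which 14 of 30 were above naive cells, where 6 of 49 members and 19.4% of all genes were. The largest rises by 33 h were those of Rrm2 (4.44), Tk1 (3.84) and Tyms (3.43). From 33 h to plasmablasts 10 of 30 replication genes fell and 0 rose (19.4% and 20.1% of all genes; 0 at an unadjusted p under 0.05, and 2 by the F-test), with a median of -0.68, where 8 of 49 members rose and 2 fell, with a median of 0.093.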

How the data were processed

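RNA-Seq was measured in 12 libraries of mouse B cells, 2 for each of 6 stages. The authors mapped reads to mm10 in Rsubread, and the deposited values are raw counts per Entrez gene from featureCounts, with exon lengths and no scaling. The submitters' processing notes also name CASAVA 1.8.2. Strand and multi-mapping settings were not given in the sources used here. The 12 single-sample files equalled the series table. As in the study, ribosomal RNA (33), mitochondrial (15), X and Y (1279) and variable immunoglobulin (227) genes and 1904 unmatched identifiers were removed, 9.43% to 15.9% of counts. Library totals ran from 23026619 to 60585587.

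R 4.3.3 with edgeR 4.0.16 was used: filterByExpr (12767 genes kept), TMM scaling, a one-way layout of all libraries, robust quasi-likelihood fits, glmTreat against 1.5-fold and Benjamini-Hochberg adjustment at 0.05 over all tested genes. SE of a log2 fold change was taken from the fit's F statistic. Scripts were tested on simulated data. With 2 libraries against 2, an exact permutation test cannot go below p = 0.333. The replicates are described as biological, and same-numbered libraries did not deviate together (correlations of -0.139 to 0.0839 over 15 pairs of stages), so replicate numbers were not treated as pairs.

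The members and lists were chosen with earlier results of these data known. All members are named. Every library is given for a fixed set of regulators and for the called members with the 3 largest rises and the 3 largest falls at each step, and of other lists up to 3 called genes each. Exceptions to a list's direction are given for the steps to 3 and 10 h. Alternatives covered scaling and the test (DESeq2 1.42.0), filters, dispersions, a replicate block, fewer libraries in the fit and, for promoters, a shorter window. Hi-C data were not analysed here, and some values of list genes are not reported here.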

Additional observations from a re-analysis of the deposited data

How the results depend on the processing

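Of 104 called changes of members, 69 kept their call under all 23 alternatives and 0 reversed, with 19 lost without 3 h replicate 1 and 22 without 3 h replicate 2. Leaving out each library in turn gave 1 to 2 rises and 13 to 24 falls by 3 h, 12 to 29 rises and 1 to 3 falls from 3 to 10 h, 46 to 47 rises and 0 to 0 falls from 10 to 33 h, 2 to 16 rises and 1 to 1 falls to expanded cells, and 0 to 1 rises and 1 to 4 falls to plasmablasts. With library size as the only scaling, 1 member rose by 3 h, 0 fell from 3 to 10 h, and 0 rose and 9 fell to plasmablasts, where the median of all genes moved to -0.241, 0.349 and -0.384 at these steps. Of all 12767 genes, 2092 rose by 3 h, 1004 fell from 3 to 10 h, and 1189 rose and 2961 fell to plasmablasts. DESeq2's Wald test gave 34 falls by 3 h and 4 falls from 3 to 10 h, where 4519 and 4181 of 12767 genes fell. It gave 19 rises to expanded cells, where 2381 genes rose, and 3 rises and 11 falls to plasmablasts, where 3518 and 3491 did. The F-test gave 32 falls, 19 rises, and 3 rises and 12 falls at the first and the last 2 of these steps. Of all genes it called 4640 lower, 2358 higher, and 3483 higher and 3791 lower there. Rises by 3 h numbered 1 with at least 10 counts in every library, which leaves 46 members, and with only the 4 libraries compared, which gave 5 falls to plasmablasts. Of all genes, 2138 of 9977 and 2334 of 11705 rose by 3 h in these fits, and 1745 of 11933 fell to plasmablasts. Without a filter on low counts 5 members rose to expanded cells and 5 fell to plasmablasts, where 966 and 1686 of 17112 genes did. Without robust mode 5 members rose to expanded cells, where 894 of 12767 genes did. The cause was not tested.

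With a replicate block 5 members rose to expanded cells instead of 3, where 878 instead of 894 of all 12767 genes did. Of the 104 calls 1 was lost (Kif18a, 3 to 10 h). The replicate differences of 3 h and 10 h had a weak negative correlation over genes (r = -0.139), and a crossed pairing was added after the data were seen. On these 4 libraries 26 members rose and 2 fell with it, against 21 and 0 with the block and 23 and 2 without it. Of all genes 3633, 2762 and 3168 were called in these fits, so the larger count is not particular to members. Since the pairing was chosen from the same values, no conclusion about members is drawn from it.

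Counted against naive cells, first rises numbered 5 by 10 h, 39 by 33 h, 1 in expanded cells and 1 in plasmablasts, with 1 member without any. Counted over the stage before with the F-test, they numbered 37 by 10 h and 8 by 33 h, with 1 member without any. In the 100 bases before to 50 after the start, 66.7% of member windows held a CHR and 62.2% a CCAAT box, against 8.59% and 23.4% of all windows. Depth limits Cdc25c most, with 2 and 4 counts at 3 h.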
